A study of Rattus norvegicus with 5 samples.

Results

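Lipid carriers, fatty acid binding proteins, a lipase and fatty acid enzymes were followed in rat retinal Müller cells through 8 genes, Apoe, Apod, Fabp5, Fabp7, Lpl, Fasn, Scd and Acsl3. Every probe set annotated with one of these symbols alone was taken, which gave 14 probe sets of 8740 that are not controls, or 8 of 4736 genes with a symbol of their own. Of the 14 probe sets 11 passed the filter on dim signals and 3 did not, so that Fabp7 had no tested probe set. The diabetic group was male Sprague-Dawley rats given streptozotozine (streptozotocin, which kills pancreatic beta cells), diabetic for 6 months and kept on small insulin doses to prevent catabolism. The normal group was healthy male Sprague-Dawley rats, and no age is stated in the labels for either group. Each pool held retinas of 12 rats, with 2 arrays for the diabetic pool, the second labelled a technical replicate, and 1 array for each of 3 normal pools. The 2 diabetic arrays were therefore averaged into 1 pool, and whether they carried the same RNA preparation is not stated. The question was which transcripts of these glia differ after prolonged diabetes.

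Müller cells span the retina and, with astrocytes, supply lipid to its neurons. In glia, apolipoprotein E is loaded with cholesterol and phospholipid and secreted, lipoproteins are taken up by receptors of the LDL receptor family, and lipoprotein lipase frees fatty acids from triglyceride-rich particles. Inside cells, fatty acids are carried by small binding proteins, are made by fatty acid synthase, desaturated by stearoyl-CoA desaturase and activated to acyl-CoA by the Acsl ligases.

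Signals below are deposited intensities after quantile normalisation between arrays, in which a probe set's value depends only on its rank on that array. Signals under a floor of 20 were set to 20 before log2 values were taken, so a log2 value of 4.32 is the floor. Differences are the log2 value of the diabetic pool minus the mean of the 3 normal pools, and a signal depends on the probes used, so no gene's signal is read against another gene's.

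The arrays did not group by condition alone, which bears on every value that follows. The actin 3'/5' ratio, which is higher where RNA is shorter, was 2.55 on diabetic array 2 and 2.61 on normal array 1, against 1.46 to 1.76 on the other 3 arrays. By the GAPDH 3'/5' ratio diabetic array 2 was again highest, at 1.345, but normal array 1, at 1.157, was under normal array 2, at 1.239. Normal array 3 was at 1.033 and diabetic array 1 at 1.107, so the split used below rests on actin alone. Diabetic array 2 and normal array 3 shared a recorded processing day and a chip lot, whereas no day or lot was recorded for diabetic array 1. Markers of the labelled cell type were present, which does not measure purity. Glul, the glutamine synthetase of Müller cells, had signals of 8290.1 and 7984 on the diabetic arrays and 7532 to 11797 on the normal arrays, and the 8 measured Müller markers of 11 listed summed to 24605 and 25976 on the diabetic arrays and 24494 to 32534 on the normal arrays. Of these 8 genes 2 lay above and 6 below normal, with 0 at an adjusted p under 0.05. Car2 had both diabetic arrays below all normal arrays, as for 7.01% of all tested probe sets. The signal of Kcnj10 was 74.8 and 31.2 on the diabetic arrays, against 41.5 to 78.7 on the normal arrays. Rlbp1, Dkk3 and Sox9 of that list were not analysed here. Photoreceptor markers were present too, and their 6 measured genes of 12 listed summed to 12140 and 12997 on the diabetic arrays, against 3954.5 to 9588 on the normal arrays. The 7 tested markers of microglia and other leukocytes, of 13 listed, summed to 2144 and 2382.5 on the diabetic arrays, against 1352.5 to 1800.4 on the normal arrays. Both sums were thus above every normal array on both diabetic arrays. So was that of reactive glia (Serpina3n and Lcn2, 2 tested of 5 listed), at 1160.9 and 1305.9, against 193 to 333 on the normal arrays. Ttr, the 1 tested gene of 6 listed for pigment epithelium, read 201 and 240 on the diabetic arrays, against 50.3 to 130 on the normal arrays. The part of these marker groups in the differences below was not tested. In such bulk samples fewer cells of a type and less RNA per cell cannot be told apart.

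**Figure D1:**
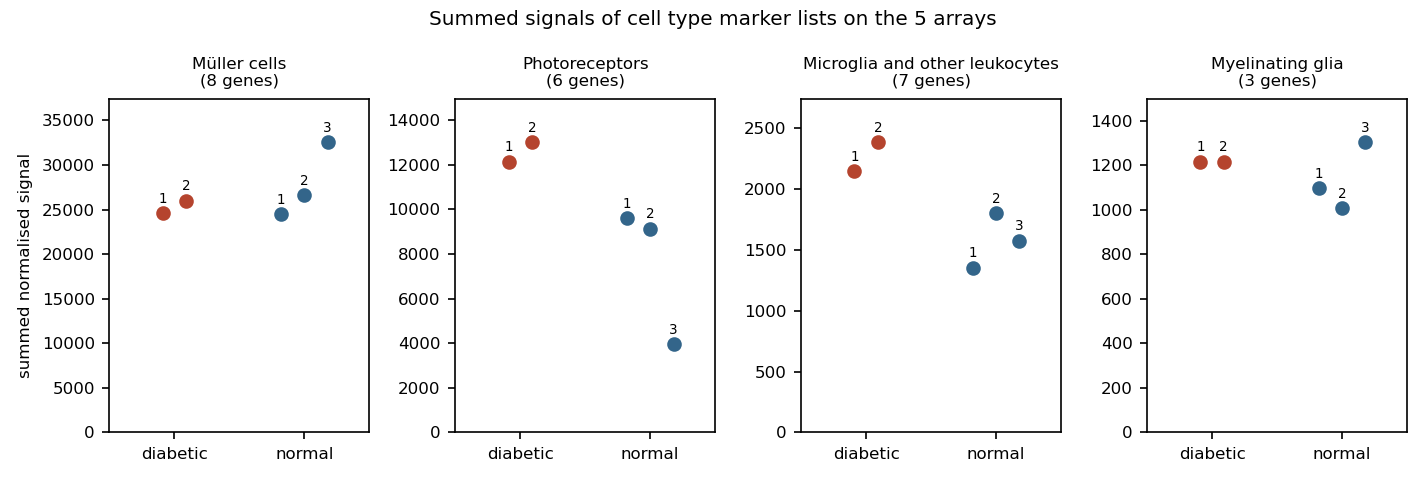
Summed normalised signal (y axis, from 0) of the tested marker genes of 4 cell types on the 2 diabetic arrays (left in each panel) and the 3 normal arrays (right), numbered by array. Photoreceptor and leukocyte sums are higher on both diabetic arrays than on all normal arrays, with normal array 3 lowest for photoreceptors at 3954.5, while Müller cell and myelinating glia sums overlap between the groups.

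None of the 7 genes with a tested probe set passed the test between diabetic and normal Müller cells, which does not show that they were equal, since with 1 diabetic pool few differences can pass. In limma, with p adjusted by Benjamini-Hochberg across the 6118 probe sets tested, 0 of the 11 tested probe sets had an adjusted p under 0.05, beside 0% of all tested probe sets. At an unadjusted p under 0.05 there were also 0 of 11, beside 1.6% of all tested probe sets (1.19% on the side above normal), and the lowest unadjusted p was 0.143 (adjusted p = 1). In direction 2 of the 11 lay above normal, namely those of Apod and Fabp5, and 9 lay below, whereas 48.8% of all tested probe sets lay above. The 9 came from Scd and from Apoe, Lpl, Fasn and Acsl3 with 2 tested probe sets each, so they are not independent. The differences ran from 0.03 to 0.66 in size on the log2 scale. The gap between the 2 diabetic arrays exceeded the difference for 7 of the 11, and the range of the 3 normal pools exceeded it for 8. On the deposited values without scaling, where the median of all tested probe sets was itself 0.47, and with median scaling, where it was -0.02, each of the 11 kept its side relative to that median. With 1 diabetic pool against 3 normal pools an exact permutation cannot give a p below 0.25, only the normal pools supply a measured spread, and the single diabetic pool is taken to vary as they do. The number of arrays limits the precision.

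**Figure D2:**
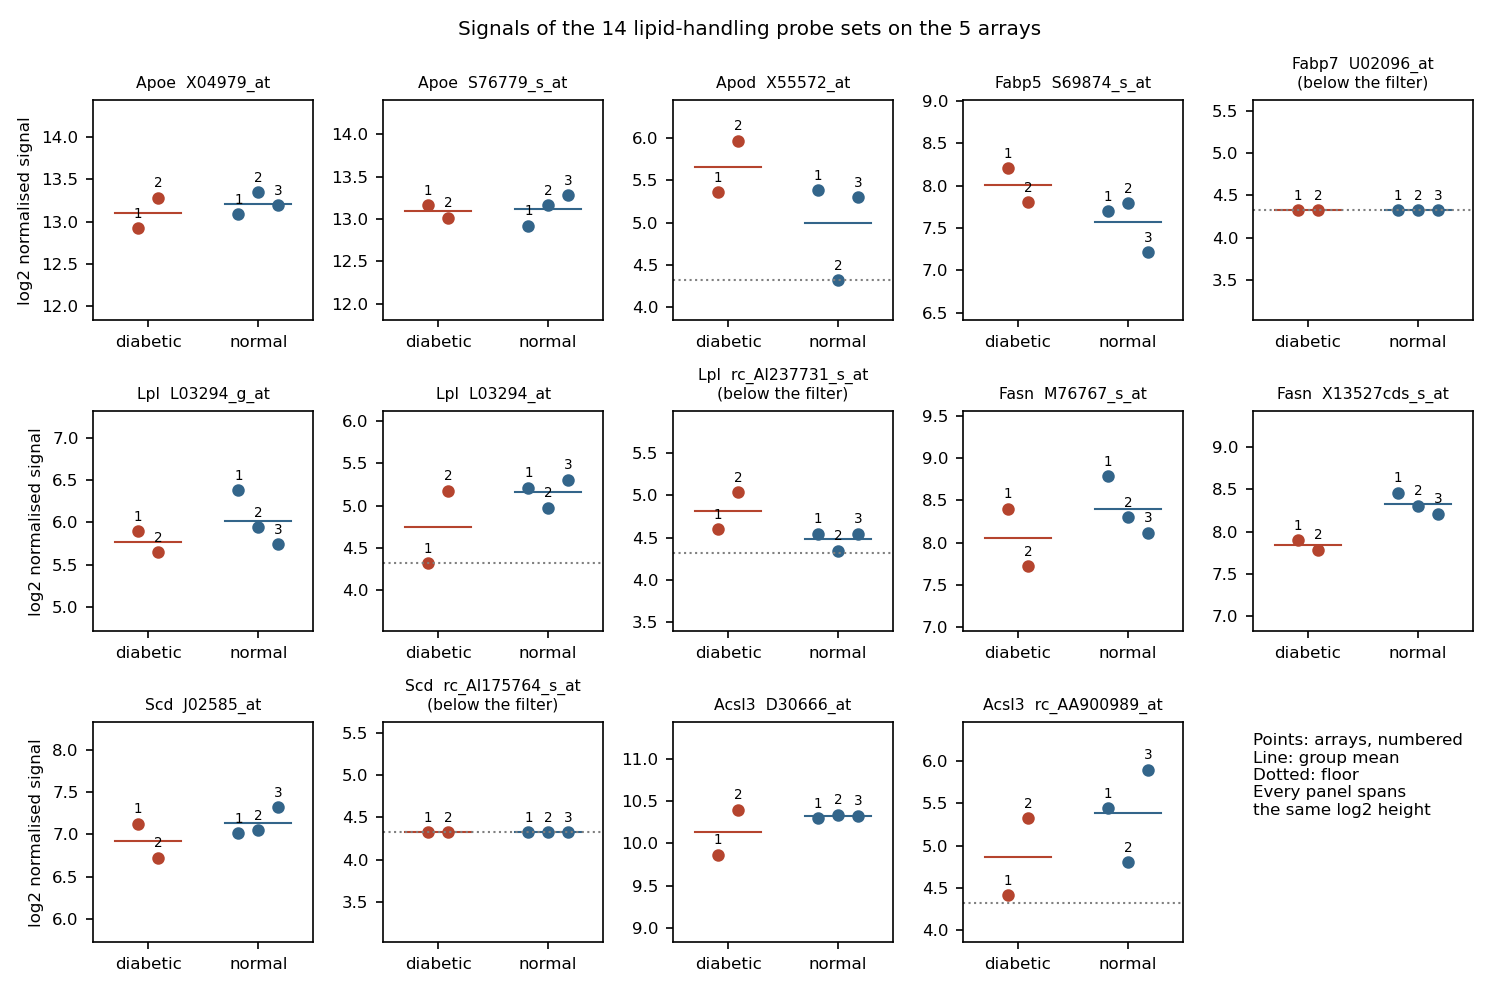
Log2 normalised signal (y axis) of each of the 14 probe sets on the 2 diabetic arrays (left) and the 3 normal arrays (right), numbered by array, with group means as lines and the floor of 4.32 dotted. Diabetic and normal arrays separate for Fabp5 and for X13527cds_s_at of Fasn among the tested probe sets, and for the dim rc_AI237731_s_at of Lpl, while Fabp7 and rc_AI175764_s_at of Scd lie on the floor throughout.

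Apoe encodes the main apolipoprotein of glia, which carries cholesterol and phospholipid to neurons. Its signal was close to the top of every array in both groups and did not separate them. X04979_at read 7753 and 9969.5 on the diabetic arrays, against 8692, 10397 and 9373 on the normal arrays. The diabetic arrays enclosed 2 of the 3 normal arrays, and the log2 difference was -0.11 (SE 0.26, 95% interval -0.75 to 0.54, limma). The second probe set, S76779_s_at, read 9188 and 8290.1 on the diabetic arrays, against 7753, 9188 and 9969.5 on the normal arrays. Diabetic array 1 and normal array 2 hold the same value there because Apoe had rank 6 on both. The log2 difference of S76779_s_at was -0.03 (SE 0.27, 95% interval -0.71 to 0.65). Between the arrays of the shared day the 2 probe sets differed in sign, at 0.09 for X04979_at and -0.27 for S76779_s_at. Among all 8740 probe sets Apoe ranked between 3 and 12 by signal, and its deposited values were 58.3% to 93.7% of the largest on the array. At that end a normalised value moves only by steps between neighbouring ranks, and saturation of scanner cells was not examined here.

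Apod, whose lipocalin protein binds arachidonic acid and other small lipids and is made by glia under stress in rodents, had the largest difference of the tested probe sets. The signal of X55572_at was 41.0 and 62.6 on the diabetic arrays, against 41.7, 14.4 and 39.4 on the normal arrays. The groups overlapped, since diabetic array 1 lay under normal array 1, and normal array 2 stood below the floor of 20. The diabetic pool was at 1.58 times the normal signal (log2 difference 0.66, SE 0.61, 95% interval -0.87 to 2.20, limma adjusted p = 1), a fold that the floor understates. The difference was 0.32 without normal array 2, 0.32 without diabetic array 2 and 0.32 with the floor raised to 40. In that last fit all normal arrays stood within a narrow span next to the floor and the unadjusted p was 0.00602 (adjusted p = 0.372). The pair of arrays from the shared day gave 0.67. Myelinating glia also make apolipoprotein D, and their 3 tested markers summed to 1215.6 and 1215 on the diabetic arrays and 1005.9 to 1302 on the normal arrays, and overlapped between the groups. Of their other markers, Mbp, Mog and Mobp read 7.24 to 30.5 over the 5 arrays.

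The promoter windows of these 2 carriers are shown because Apod had the largest difference and Apoe ranked near the top of every array. Both come from RefSeq on rat assembly GRCr8 and run from 250 bases before an annotated transcription start to 50 bases from it. The Apod window lies at chr11:82935970-82936269 on the plus strand, and the Apoe window, 1 of 3 annotated for that gene, at chr1:88484650-88484949 on the minus strand. Capitals mark exact matches on either strand to 6 searched motifs.
Apod: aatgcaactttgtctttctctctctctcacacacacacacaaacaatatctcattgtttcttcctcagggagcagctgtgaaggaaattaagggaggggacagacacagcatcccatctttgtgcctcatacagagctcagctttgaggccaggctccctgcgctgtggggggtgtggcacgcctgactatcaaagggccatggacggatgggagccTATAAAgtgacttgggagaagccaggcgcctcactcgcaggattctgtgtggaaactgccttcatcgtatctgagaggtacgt
Apoe: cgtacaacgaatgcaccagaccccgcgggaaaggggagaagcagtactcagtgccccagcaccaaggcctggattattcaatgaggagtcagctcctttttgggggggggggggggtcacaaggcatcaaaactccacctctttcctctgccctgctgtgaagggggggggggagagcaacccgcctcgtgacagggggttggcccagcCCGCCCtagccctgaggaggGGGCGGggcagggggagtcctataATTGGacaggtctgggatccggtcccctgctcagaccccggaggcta
The Apod window holds a TATA box (TATAAA) starting 33 bases before the start site, a motif present in 14.2% of 33469 promoter windows. The Apoe window holds 2 GC boxes (GGGCGG, in 33.1% of windows) and 1 inverted CCAAT box (CCAAT, in 37.5%), which do not overlap. Its GC boxes start at -41, inverted, and at -21 from the start site, while the inverted CCAAT box lies past the start site, at base 4. Neither window held the sterol regulatory element TCACNCCAC (1.12% of windows), the E-box CACGTG (6.42%) or the nuclear receptor motif direct repeat 1 (0.0538%). Windows were also found for Fabp7, Scd and Acsl3, and none of those 3 held any of these 3 motifs. A match is a description of letters and not a site shown to be bound.

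Fabp5, a fatty acid binding protein of skin, macrophages and glia that also carries retinoic acid, was the 1 tested gene of the 8 for which each diabetic array exceeded each normal array. S69874_s_at read 295 and 223 on the diabetic arrays, against 208, 222 and 148.0 on the normal arrays. Diabetic array 2 cleared normal array 2 by very little, at log2 7.80 against 7.79, so the separation rests on that margin. Such separation above normal held for 1 of the 11 tested probe sets here and for 9.53% of all tested probe sets. The diabetic pool was at 1.35 times the normal signal, a log2 difference of 0.44 (SE 0.37, 95% interval -0.49 to 1.36, limma adjusted p = 1). It was 0.25 without normal array 3, 0.24 without diabetic array 1, 0.65 without diabetic array 2 and 0.59 for the pair of arrays from the shared day. Restricted to the 3 arrays whose actin ratio was low, it was 0.74. The marker sums of leukocytes, photoreceptors and reactive glia given above were also highest on both diabetic arrays. That of photoreceptors was, like Fabp5, lowest on normal array 3. Of the 7 tested leukocyte genes 6 had both diabetic arrays above all normal arrays, beside 9.53% of all tested probe sets. These included Aif1, a cytoskeletal marker of microglia, at 96.5 and 93.8 on the diabetic arrays, against 34.2, 70.8 and 51.5 on the normal arrays. Ptprc overlapped, at 106.9 and 107.2 on the diabetic arrays, against 185.7, 52.3 and 60.8 on the normal arrays. Whether such cells contribute to Fabp5 was not tested.

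Fabp7, the brain fatty acid binding protein of radial glia and astrocytes, was below the floor on all 5 arrays. U02096_at read 11.4 and 14.9 on the diabetic arrays, against 1.24, 2.60 and 11.3 on the normal arrays. No fold is given, since both groups lay under the floor, and a low signal of 1 probe set does not show that the transcript is absent.

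Lpl, the secreted lipase that hydrolyses triglycerides of lipoproteins, was dim on all 3 of its probe sets, which did not agree in direction. L03294_g_at read 59.5 and 50.04 on the diabetic arrays, against 83.2, 61.5 and 53.5 on the normal arrays. Its log2 difference was -0.25 (SE 0.50, 95% interval -1.49 to 0.99), and normal array 1 alone stood clear of the rest. Leaving out normal array 1 gave -0.0747, and leaving out diabetic array 2 gave -0.13. L03294_at, made from the same accession, read 19.8 and 36.1 on the diabetic arrays, against 37.0, 31.4 and 39.5 on the normal arrays. Diabetic array 1 was at the floor and diabetic array 2 lay within the normal range, for a log2 difference of -0.41 (SE 0.47, 95% interval -1.60 to 0.77) that became 0.0101 without diabetic array 1. The third, rc_AI237731_s_at, fell under the filter and read 24.2 and 32.9 on the diabetic arrays, against 23.4, 20.4 and 23.35 on the normal arrays. Both diabetic arrays were above all normal arrays for that probe set, as for 9.53% of all tested probe sets. Its log2 difference was 0.34 (SE 0.11 in the limma fit without the filter, adjusted p = 1). In that fit the SE of L03294_at was 0.19 rather than 0.47, so the SE of 0.11 is not read against those above. Lpl is abundant in adipocytes, of whose 4 measured markers Fabp4, Plin1 and Cfd lay between 0.88 and 9.96 on every array, under the floor, while Lep, the leptin gene, read 1191 and 1019 on the diabetic arrays and 821 to 1352 on the normal arrays.

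Fasn, the multi-domain enzyme that builds palmitate, lay below normal on both of its probe sets after quantile normalisation and relative to the median of all tested probe sets under both other scalings. X13527cds_s_at read 239 and 221 on the diabetic arrays, against 351, 316 and 296.5 on the normal arrays. Both diabetic arrays were below all normal arrays, as for 7.01% of all tested probe sets, and this was the one of the 11 whose difference exceeded both the gap between the diabetic arrays and the range of the normal pools. The diabetic pool was at 0.716 times the normal signal, a log2 difference of -0.48 (SE 0.28, 95% interval -1.19 to 0.22, limma unadjusted p = 0.143, adjusted p = 1). It kept between -0.53 and -0.42 when each array was left out in turn, and the pair from the shared day gave -0.43. M76767_s_at read 337 and 211 on the diabetic arrays, against 440.3, 316 and 278 on the normal arrays. Here diabetic array 1 lay inside the normal range, and the log2 difference was -0.34 (SE 0.36, 95% interval -1.23 to 0.55). It was -0.68 without diabetic array 1, -0.0022 without diabetic array 2 and 0.19 when only the 3 low-ratio arrays were used.

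Scd, the desaturase that turns stearate into oleate, was measured by J02585_at at 140.0 and 106 on the diabetic arrays, against 129, 133 and 160.25 on the normal arrays. Diabetic array 1 stood between normal arrays 2 and 3 and diabetic array 2 below all normal arrays. The log2 difference was -0.20 (SE 0.37, 95% interval -1.12 to 0.71), and it was -0.40 without diabetic array 1, -0.0044 without diabetic array 2 and -0.10 without normal array 3. The pair from the shared day gave -0.60 and the 3 low-ratio arrays gave -0.0643. The second probe set of Scd, rc_AI175764_s_at, read 0.88 and 10.2 on the diabetic arrays and 1.01, 1.52 and 12.0 on the normal arrays, all under the floor. One further probe set, AF036761_g_at, is annotated to Scd together with its relatives Scd2, Scd3 and Scd4 and is not counted among the 14. It read 278 and 20.9 on the diabetic arrays, against 97.9, 689 and 471 on the normal arrays, so the technical pair of diabetic arrays differed by 3.74 on the log2 scale. Its 2 lowest arrays were diabetic array 2 and normal array 1, those with the high actin ratio, and the part of that ratio was not tested.

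Acsl3, a long-chain acyl-CoA ligase of the endoplasmic reticulum and lipid droplets, had 2 tested probe sets that differed in their spread. D30666_at read 932 and 1346 on the diabetic arrays, against 1259, 1293 and 1284 on the normal arrays. The normal pools spanned 0.04 on the log2 scale, while the 2 diabetic arrays lay on either side of them, 0.53 apart. The log2 difference was -0.19 (SE 0.22, 95% interval -0.75 to 0.37), and it was 0.0789 without diabetic array 1 and -0.47 without diabetic array 2. The dim rc_AA900989_at, whose normal pools spanned 1.10 on the log2 scale, read 21.4 and 40.05 on the diabetic arrays, against 43.6, 27.9 and 59.7 on the normal arrays. Its groups overlapped, and its log2 difference was -0.51 (SE 0.60, 95% interval -2.005 to 0.98). It was -0.063 without diabetic array 1, -0.21 without normal array 3, -0.80 without normal array 2 and -0.96 without diabetic array 2.

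**Figure D3:**
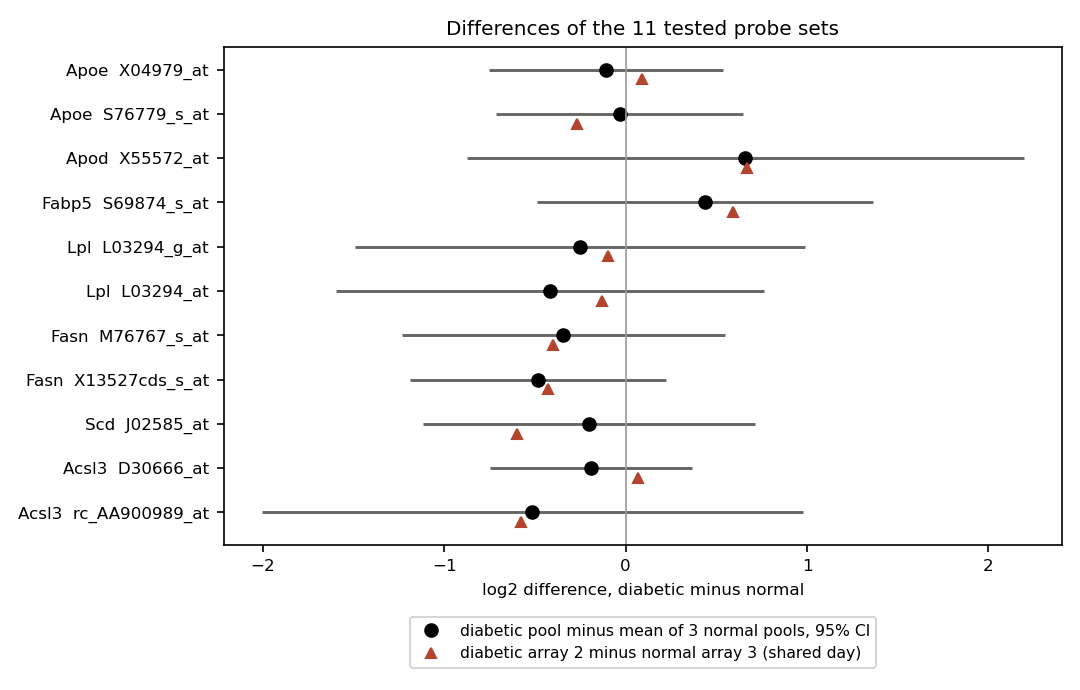
Log2 difference of the diabetic pool minus the mean of the 3 normal pools (x axis) for the 11 tested probe sets, with limma's 95% intervals as lines and, as triangles, diabetic array 2 minus normal array 3, which shared a processing day. Every interval includes 0, with Apod at 0.66 and Fabp5 at 0.44 above 0 and the other 9 below it, and without scaling 7 of those 9 turn above 0 but stay under the median of all tested probe sets of 0.47.

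Other genes of lipoprotein traffic lay on both sides of normal. Of 35 listed carriers, receptors and lipases 17 had a tested probe set, with 0 at an adjusted p under 0.05. Of these 17 genes 12 lay above and 5 below normal, where 48.8% of all tested probe sets lay above. Their median log2 difference was 0.12, beside -0.01 over all tested probe sets, and it was 0.0583 without diabetic array 1 and 0.26 without diabetic array 2. Scarb1, the scavenger receptor for high-density lipoprotein, was the 1 gene of these 17 with an unadjusted p under 0.05. Of all tested probe sets 1.6% had such a p, and 1.19% had it on the side above normal. Scarb1 read 816 and 511 on the diabetic arrays, against 407, 445 and 346 on the normal arrays (log2 difference 0.70, SE 0.28, limma unadjusted p = 0.0486), and it is named after its values were seen. Clu, clusterin or apolipoprotein J, a secreted carrier and chaperone of glia, read 11797 and 10950.0 on the diabetic arrays, against 6483, 7753 and 9188 on the normal arrays. Both diabetic arrays of Clu were above all normal arrays, as for 9.53% of all tested probe sets. On diabetic array 1 the deposited value of Clu, 13281.9, was the largest of the array, so the limits given for Apoe at that end apply to Clu too. Its log2 difference was 0.56 (SE 0.30), and 0.25 for the pair from the shared day. The lysosomal lipase gene Lipa differed by 0.12 (SE 0.24), the hormone-sensitive lipase gene Lipe by 0.38 (SE 0.34) and Vldlr, a receptor for apolipoprotein E, by 0.20 (SE 0.47). Apoc1, a small apolipoprotein that neighbours Apoe in the rat genome, read 181 and 231 on the diabetic arrays, against 299, 289 and 283 on the normal arrays, and is also named after its values were seen. Both diabetic arrays of Apoc1 were below all normal arrays, as for 7.01% of all tested probe sets, with a log2 difference of -0.51 (SE 0.28).

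Other binding proteins were few. Of 12 listed genes for fatty acid and acyl-CoA binding 5 were tested, with 3 above and 2 below normal, 0 past the threshold and a median of 0.01 (-0.14 to 0.0824 with 1 array left out, -0.32 on the low-ratio arrays). Fabp3, the heart-type fatty acid binding protein, read 51.0 and 55.35 on the diabetic arrays, against 73.1, 115 and 72.0 on the normal arrays. Both diabetic arrays were below all normal arrays, as for 7.01% of all tested probe sets. The log2 difference of -0.67 (SE 0.50) had the opposite sign to that of Fabp5. Dbi, the acyl-CoA binding protein, differed by 0.01 (SE 0.25). Fabp4, Fabp3's relative in adipocytes and macrophages, read 0.88 to 1.98 over the 5 arrays.

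Fatty acid synthesis and activation were measured by 12 of 30 listed genes, with 7 above and 5 below normal, 0 past the threshold and a median of 0.04. That median ran from -0.008 without normal array 1 to 0.26 without diabetic array 1. Acaca, whose acetyl-CoA carboxylase supplies malonyl-CoA to fatty acid synthase, differed by -0.39 (SE 0.49), and Acly, the citrate lyase upstream of it, by 0.20 (SE 0.24). Scd2, a desaturase of brain in rodents, differed by 0.05 (SE 0.29) on its brightest probe set. Its other tested probe sets lay below normal, at -0.83 (AF036761_at, SE 0.79), -0.69 (S75730_at, SE 0.45), -0.36 (U67995_s_at, SE 0.42) and -0.20 (M15114_g_at, SE 0.30). Relatives of Acsl3 lay on both sides of normal. Acsl1 read 141 and 136 on the diabetic arrays, against 110.4, 78.9 and 83.0 on the normal arrays (log2 difference 0.62, SE 0.43). Acsl5 read 92.8 and 59.5 on the diabetic arrays, against 18.8, 57.5 and 15.5 on the normal arrays, 2 of which were under the floor (1.39, SE 0.76). Acsl6, a ligase of neural tissue, read 323 and 271 on the diabetic arrays, against 194, 232 and 236 on the normal arrays (0.43, SE 0.31), and Acsl4 differed by -0.08 (SE 0.45). For Acsl1, Acsl5 and Acsl6 the diabetic arrays exceeded every normal array. They were the 3 such genes of the 12 tested, beside 9.53% of all tested probe sets, and none passed limma's adjustment (adjusted p = 1 for each).

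Genes of fatty acid oxidation and lipid sensing lay on both sides of normal. Of 33 oxidation genes 20 were tested, with 0 past the threshold. Of these 20 genes 12 lay above and 8 below normal, where 48.8% of all tested probe sets lay above. Their median was 0.13, beside -0.01 over all tested probe sets. The median of the oxidation genes ran from 0.0524 without normal array 3 to 0.18 without diabetic array 2. Cpt1a, which admits fatty acids to mitochondria, differed by 0.13 (SE 0.29) and Acadm, a dehydrogenase of medium chains, by 0.57 (SE 0.48). Of 22 regulators 15 were tested, with 7 above and 8 below, 0 past the threshold and a median of -0.04, which ran from -0.16 without diabetic array 1 to 0.0945 without diabetic array 2. Srebf1, the transcription factor that drives Fasn and Scd in liver, differed by -0.04 (SE 0.32). The fatty acid receptors Ppara, Ppard and Pparg differed by -0.10 (SE 0.68), -0.33 (SE 0.56) and -0.04 (SE 0.57). Of the 28 partner genes to be reported where measured 19 had a tested probe set, with 12 above and 7 below normal, and 0 had an unadjusted p under 0.05 by limma.

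**Figure D4:**
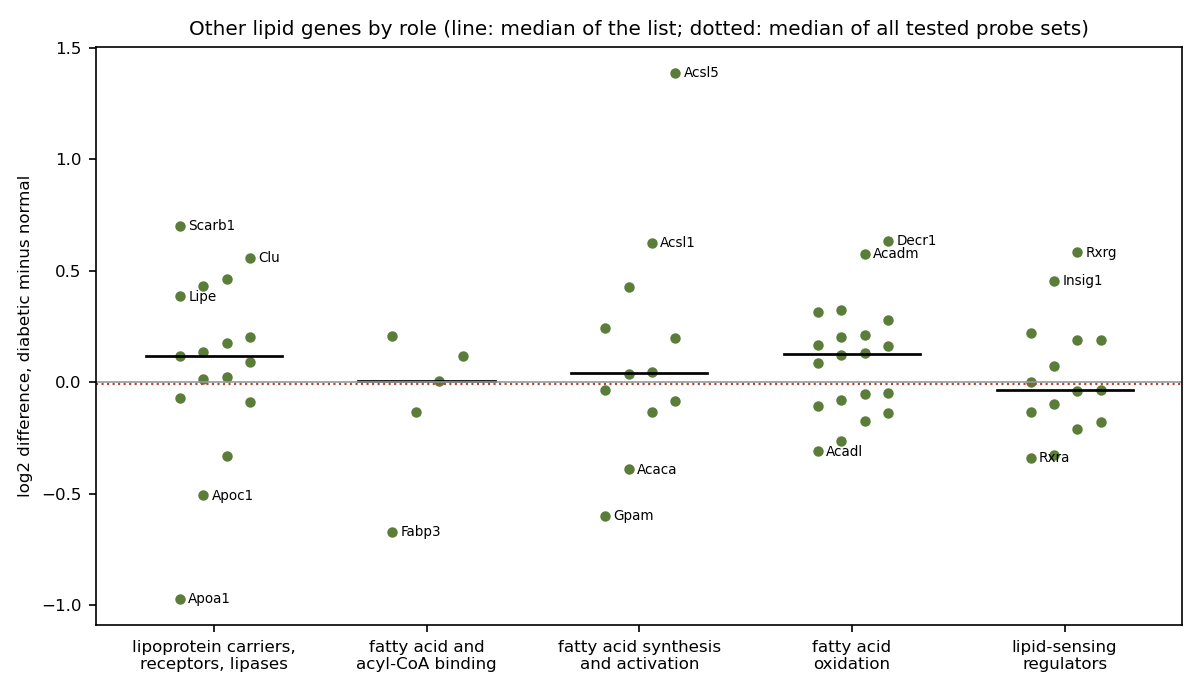
Log2 difference, diabetic minus normal (y axis), of every tested gene of 5 lipid lists, each gene by its brightest probe set, with the list's median as a line and the median of all tested probe sets dotted. Medians run from -0.04 for regulators to 0.13 for oxidation, and single genes such as Acsl5 at 1.39 and Apoa1 at -0.97 lie far from them.

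Patterns over the 5 arrays were compared by the root mean square distance between log2 values after each probe set's own mean was removed, a description over 5 arrays that share 1 normalisation. Apod and Fasn had the widest ranges among the brightest tested probe sets, at 1.65 and 1.06. The genes nearest to Apod were the acetyltransferase gene Kat5 (0.145), Fcgr2b, an inhibitory Fc receptor of leukocytes (0.15), and Selenop, a secreted selenium carrier (0.17), where the median gene was 0.61 away. Fcgr2b read 56.3 and 82.4 on the diabetic arrays, against 43.3, 25.9 and 53.0 on the normal arrays, with its lowest value, like that of Apod, on normal array 2. The genes nearest to Fasn were C7h8orf33 (0.08), Cmss1 (0.09) and the interleukin-1 receptor subunit gene Il1rap (0.09), with the median gene at 0.48. Il1rap read 104 and 64.9 on the diabetic arrays, against 124, 107 and 89.3 on the normal arrays, so that, as for M76767_s_at of Fasn, normal array 1 was highest and diabetic array 2 lowest. Among the members, each by its brightest tested probe set alone, the closest pairs were Apoe with Acsl3 at 0.10 and Lpl with Fasn at 0.14. The most distant was Apod with Fasn at 0.74. Both X04979_at of Apoe and D30666_at of Acsl3 were lowest on diabetic array 1, but S76779_s_at of Apoe was lowest on normal array 1. Such a distance is also small where both probe sets vary little.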

How the data were processed

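Total RNA was measured on 5 Affymetrix rat arrays. Each deposited value is 1 probe set's intensity, linear and on no common scale across arrays (medians 27.9 to 91.3); for how the authors summarised probes, a method is not given in the sources used here. Deposited array records, which hold other text and no measurement, gave only processing days and chip lots.

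Values were quantile-normalised, floored at 20 and log2-transformed. After 59 controls were left out, the dimmest 30% by mean of group means were dropped, leaving 6118 of 8740 probe sets. The diabetic arrays, averaged, were set against 3 normal pools with limma 3.58.1 (R 4.3.3, lmFit, eBayes with trend, Benjamini-Hochberg, two-sided, threshold 0.05), with 2 residual degrees of freedom. The step was tested on simulated data, where it called few of the changes put in, large ones included. Symbols came from the platform annotation, and all 8 genes matched RefSeq by Entrez ID. Other genes are represented by their brightest tested probe set. Named are every probe set of the 8 genes, 28 listed partner genes where tested, and the 3 nearest patterns of the 2 widest-ranging genes. Members and lists were chosen with earlier results of these data known. Markers of inner retinal neurons, pigment epithelium, endothelial cells and pericytes, lens, blood and reactive glia were also listed, with median log2 differences of -0.13, 1.35 (1 gene), -0.25, -0.15, 0.24 and 2.32 (2 genes). Alternatives were 2 scalings, 2 floors, 2 filters, eBayes without trend, arrays as separate samples, leaving out each array, and the 3 arrays with a low actin ratio. Figures used matplotlib 3.10.9.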

Additional observations from a re-analysis of the deposited data

How the results depend on the processing

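The count of the 11 lipid-handling probe sets past the threshold was 0 in each of the 14 alternatives, and 1 of them had an unadjusted p under 0.05 with the floor at 40 (Apod) and 1 without the filter (Fasn). Over all probe sets 0 passed in limma (98 had an unadjusted p below 0.05, and 34 to 538 over the alternatives), against 170 passing without the filter and 13 with the 5 arrays as separate samples. Of those 170, 162 had all normal arrays at the floor. Apod, Fabp5 and rc_AA900989_at of Acsl3 kept their direction in every alternative in which they were tested, though the last ran from -0.96 to -0.063 with 1 array left out. Unscaled, the medians of the 5 lipid lists were 0.45 to 0.64. Unscaled, differences turned positive for Apoe (0.24 and 0.30), L03294_g_at of Lpl (0.29), Fasn (0.21 and 0.0524), Scd (0.32) and D30666_at of Acsl3 (0.26), where the median of all tested probe sets was 0.47. Without diabetic array 1 the sign turned for X04979_at of Apoe (0.0599), L03294_at of Lpl (0.0101) and D30666_at of Acsl3 (0.0789), whose lowest values with 1 array left out were -0.27, -0.74 and -0.47. S76779_s_at of Apoe turned without normal array 3 (0.0493) and without diabetic array 2 (0.0345), with a lowest value of -0.12. L03294_g_at of Lpl (0.0552) and M76767_s_at of Fasn (0.19) turned when only the 3 low-ratio arrays were used. The cause of these turns was not tested. Apod and rc_AA900989_at of Acsl3 gave no value with the dimmest 50% left out, nor did L03294_at of Lpl, which also gave none with the floor at 40. No paired analysis was possible because the labels share only the number 2 between the groups, where it marks a biological replicate in one and a technical replicate in the other. Signals near the floor limit Fabp7, Lpl and the dim probe sets of Scd and Acsl3.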

Other observations

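Gpam, which starts glycerolipid synthesis by attaching an acyl chain to glycerol 3-phosphate, varied between arrays far more than between groups, as seen after its values were examined. U36773_at read 330 and 33.0 on the diabetic arrays, against 34.0, 362 and 322 on the normal arrays. Both low values are on the arrays with the high ratio of 3' to 5' actin, and U36773_g_at (104 and 30.1 on the diabetic arrays, against 18.9, 131 and 91.1 on the normal arrays) and U36771_g_at (66.6 and 4.37 on the diabetic arrays, against 11.4, 99.01 and 62.05 on the normal arrays) are likewise lowest there, but U36772_at is lowest on normal array 3 (176 and 59.5 on the diabetic arrays, against 70.2, 170.03 and 7.76 on the normal arrays). The Scd2 probe sets AF036761_at (508 and 184 on the diabetic arrays, against 233, 959 and 722 on the normal arrays) and U67995_s_at (1109.8 and 630.5 on the diabetic arrays, against 719, 1346 and 1288 on the normal arrays) were also lowest on diabetic array 2 and normal array 1. The brightest Scd2 probe set, rc_AA875269_at, was highest on those same arrays, at 2490.4 and 3298 on the diabetic arrays, against 3342, 2315 and 2757 on the normal arrays. Among the 6118 tested probe sets, 50 lay more than 1 below the other arrays on the log2 scale on both of these arrays and 6 lay more than 1 above. The part of RNA integrity in these values was not tested.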
